A study of Homo sapiens with 6 samples.

Results

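TXNIP and 4 ARRDC genes, ARRDC1 to ARRDC4, were described on the arrays of 3 lung cancer cell lines. They are alpha-arrestins, chosen by name through the platform annotation of the arrays, which gave 1 probe set to each. The 5 genes stand among 17687 named genes measured, and all 5 were found. PC-9 and HCC827 are lung adenocarcinoma lines in which EGFR, the receptor of epidermal growth factor (EGF), is mutated. Each gave 1 array of cells treated for 6 hours with erlotinib at 0.01 µM, an inhibitor of the receptor's kinase, and 1 control array. H322, also from a lung carcinoma, has wild-type EGFR, and gave 1 array of cells treated with EGF for 6 hours (100 µg/ml in the labels) and 1 control array. The labels name a medium with TNFa and do not say whether the control cultures had it too; if these lacked it, TNFa and the agents cannot be told apart.

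Alpha-arrestins are cytoplasmic adaptors with an arrestin fold. Most carry PPXY motifs, through which they bring ubiquitin ligases of the NEDD4 family to membrane proteins and send these to endocytosis, lysosomes or vesicles. TXNIP is the best known of them: it binds reduced thioredoxin and promotes the uptake of glucose transporters from the cell surface. Transcription of TXNIP and ARRDC4 is known to follow glucose supply through the factor MondoA (gene MLXIP) with its partner MLX. In epithelial cancers TXNIP is commonly low, and growth factor signalling is known to act on both its transcription and the stability of its protein.

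The promoter windows of 4 members are shown because they hold, or lack, letters of the kind bound by MondoA and by FOXO factors, transcription factors that AKT keeps out of the nucleus. They are RefSeq windows on GRCh38.p14 from 250 bases before to 50 bases after an annotated start, printed in the direction of transcription. Capitals mark every match, on either strand, to 4 motifs: the forkhead core GTAAACA, a pair of E-boxes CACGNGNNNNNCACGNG, the E-box CACGTG and the CCAAT box. TXNIP, here with the upstream of its 2 windows, is at chr1:145996530-145996829 on the minus strand. ARRDC2, with the downstream of its 2 windows, is at chr19:18007920-18008219 on the plus strand. ARRDC3, with the downstream of its 2 windows, is at chr5:91380048-91380347 on the minus strand, and ARRDC4 at chr15:97960453-97960752 on the plus strand.
TXNIP: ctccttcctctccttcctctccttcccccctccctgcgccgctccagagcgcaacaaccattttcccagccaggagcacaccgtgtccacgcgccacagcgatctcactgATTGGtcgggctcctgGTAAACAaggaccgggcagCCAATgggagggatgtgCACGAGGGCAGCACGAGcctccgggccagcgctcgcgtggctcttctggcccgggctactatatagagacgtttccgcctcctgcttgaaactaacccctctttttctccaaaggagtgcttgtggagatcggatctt
ARRDC2: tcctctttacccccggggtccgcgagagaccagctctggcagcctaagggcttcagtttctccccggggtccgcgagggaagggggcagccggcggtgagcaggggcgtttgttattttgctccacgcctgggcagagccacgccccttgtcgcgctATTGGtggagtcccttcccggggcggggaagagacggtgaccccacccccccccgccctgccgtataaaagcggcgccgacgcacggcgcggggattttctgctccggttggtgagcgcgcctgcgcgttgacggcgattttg
ARRDC3: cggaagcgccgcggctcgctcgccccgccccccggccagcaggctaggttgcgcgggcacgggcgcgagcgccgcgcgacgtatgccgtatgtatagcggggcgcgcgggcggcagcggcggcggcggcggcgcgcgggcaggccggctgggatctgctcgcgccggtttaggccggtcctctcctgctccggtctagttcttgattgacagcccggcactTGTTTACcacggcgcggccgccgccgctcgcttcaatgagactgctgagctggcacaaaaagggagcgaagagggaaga
ARRDC4: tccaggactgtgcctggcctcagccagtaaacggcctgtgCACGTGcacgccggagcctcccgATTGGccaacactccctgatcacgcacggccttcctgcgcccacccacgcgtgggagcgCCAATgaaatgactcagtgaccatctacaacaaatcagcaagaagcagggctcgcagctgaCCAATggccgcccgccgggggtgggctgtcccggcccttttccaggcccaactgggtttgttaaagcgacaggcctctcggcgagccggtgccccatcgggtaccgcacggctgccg

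The printed TXNIP window held the match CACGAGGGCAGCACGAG to the pair of E-boxes, beginning 88 bases upstream of the start, and a forkhead core beginning 124 bases upstream. It also held 2 CCAAT boxes. The other TXNIP window had a match to none of the 4 motifs. A match to the pair of E-boxes was found in 20 of 35116 RefSeq windows of the same length (0.057%), and a match to the forkhead core in 3.42%. The pair of E-boxes overlaps no CACGTG here, and TXNIP had the only match to it among the windows of the 5 genes. ARRDC3 had a forkhead core on the opposite strand, beginning 29 bases upstream of the start of its downstream window. ARRDC4 had 1 E-box CACGTG, which 7.26% of all windows hold, and 3 CCAAT boxes, which 34.6% hold. The printed ARRDC2 window had 1 CCAAT box, and its other window had a match to none of the 4 motifs. These matches describe letters in the windows and were not tested as sites. Of the 20 genes with a pair of E-boxes 18 were on the array by symbol. TXNIP alone of these passed the test of erlotinib described below, which called 1.48% of all genes. Of the 18, 13 exceeded background, as defined below, on all 4 PC-9 and HCC827 arrays. A link between the pair of E-boxes and the change with erlotinib was not tested.

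Signals are given on the log2 scale, as log2(intensity + 1) of the deposited intensities. A signal counts as above background where it is brighter than 95% of the 612 negative controls on its array, a limit that lay between 6.92 and 7.47. By this measure 48.8% to 52.4% of the genes on an array were above background. The lines bore out their label as carcinoma lines: all 6 epithelial markers (EPCAM, CDH1, KRT7, KRT8, KRT18 and KRT19) were above background on all 6 arrays, at 12.88 to 17.19 on the log2 scale. No more than 1 of 4 leukocyte, 1 of 3 fibroblast and 1 of 3 endothelial markers was above background on any array. Each condition of a line has 1 array, and array and culture cannot be told apart.

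TXNIP was strongly expressed in both EGFR-mutant lines, higher with erlotinib in each, and was not above background in H322. Its level was 14.31 in PC-9 with erlotinib and 12.73 in the PC-9 control, which is a 2.98-fold difference. In HCC827 it was 14.19 with erlotinib and 12.54 in the control, a 3.13-fold difference. The changes of the 2 lines, 1.58 and 1.65 on the log2 scale, were close. A shared direction was common: 5300 of all 17687 genes were higher with erlotinib in both lines and 5240 lower. As in any bulk RNA, more cells with TXNIP and more TXNIP RNA per cell cannot be told apart.

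**Figure D1:**
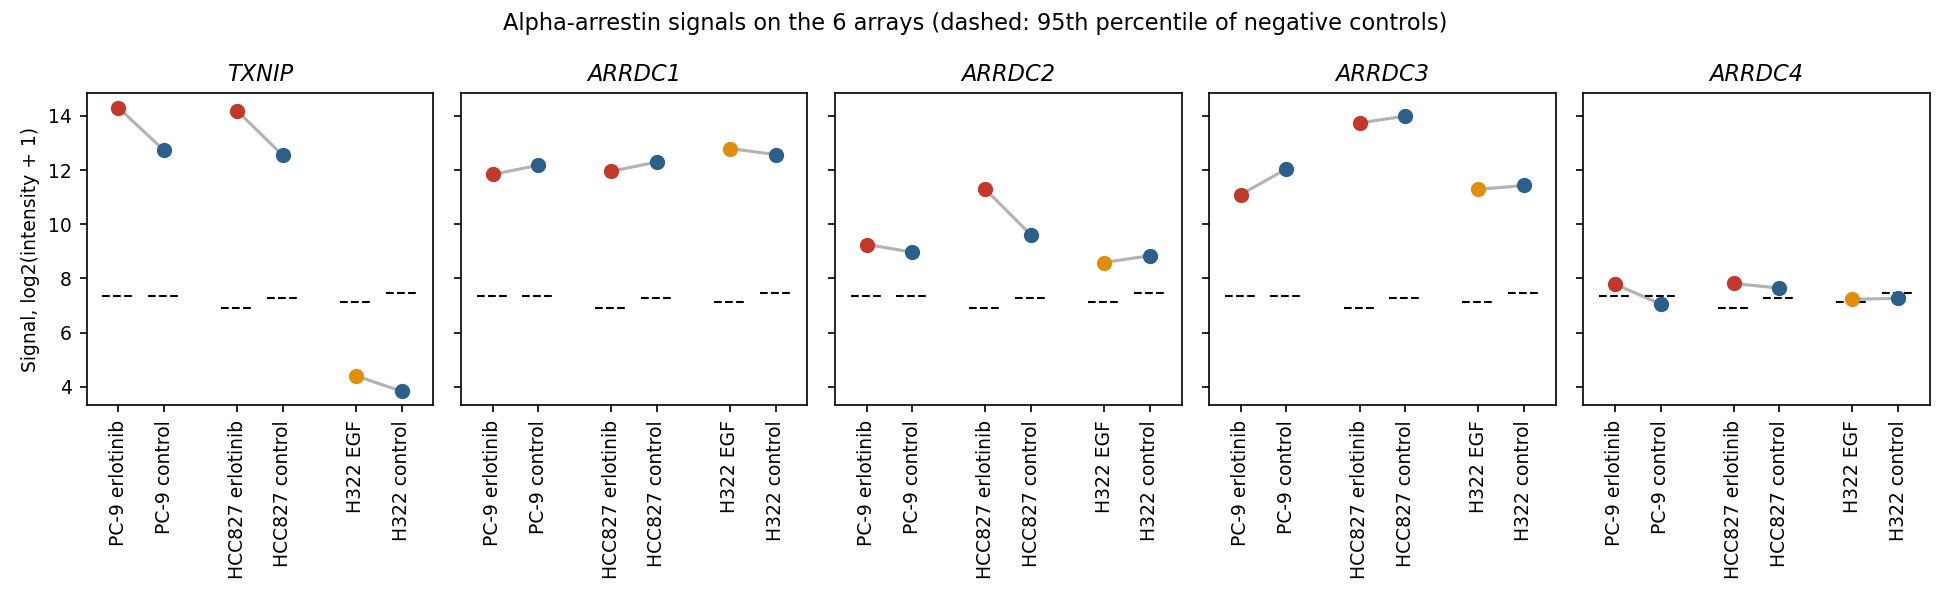
Signals of the 5 alpha-arrestin genes, each a different probe set, as log2(intensity + 1) on the vertical axis for each array (red, erlotinib; orange, EGF; blue, control), with the 95th percentile of the negative controls of that array as a dashed line. TXNIP lies at 12.54 to 14.31 in PC-9 and HCC827 and at 3.83 and 4.40 in H322, below the dashed lines.

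The effect of erlotinib was tested with limma over all 17687 genes on the 4 PC-9 and HCC827 arrays, with the line as a block. TXNIP rose 3.06-fold, a log2 change of 1.61 ± 0.13 (limma's moderated SE, n = 2 lines, limma adjusted p = 0.00734). It was higher in 2 of 2 lines, as were 5300 of the 17687 genes. It was the only 1 of the 5 alpha-arrestin genes past the threshold of 0.05, at which 1.48% of all genes were called (0.565% higher and 0.916% lower). Among the 100 genes that rose TXNIP had the smallest p, while 27 of them had a larger mean rise. In simulated data the share of false calls at this threshold was above the level it aims at, so adjusted p-values may be too small. The SE comes mostly from the spread of other genes of like level, since the 2 lines leave 1 residual degree of freedom, and nothing in the labels says that arrays came from separate cultures. TXNIP did not pass when the line block was dropped, or when the spread was not let vary with level (limma adjusted p = 0.999991 and 0.117, in a range of 3.35e-24 to 0.999991 over 10 alternative fits, of which it passed 8). Almost no gene passed in those fits: 0 of all 17687 without the block and 1 without the trend.

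Within a line, changes were ranked among the genes above background on at least 1 array of the pair. In PC-9 TXNIP had the 32nd highest change of 9041 genes, and in HCC827 the 100th of 9378. A rise of at least 2-fold was seen for 1.79% of these genes in PC-9 and for 5.02% in HCC827. Among the 7796 genes above background on all 4 arrays, 49 were at least 2-fold higher in both lines, TXNIP among them. Of the alpha-arrestins only TXNIP was 2-fold higher in PC-9, and TXNIP and ARRDC2 were in HCC827. A 2-fold lower level was seen for 3.44% of the genes in PC-9 and 3.63% in HCC827, and for no alpha-arrestin. In H322 only 0.209% of 9107 genes were 2-fold higher and 0.154% 2-fold lower with EGF, with no alpha-arrestin among them.

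In H322 the TXNIP signal was 4.40 with EGF and 3.83 in the control. Neither lay above background: 58.2% of the negative controls of the EGF array and 44.1% of those of the control array were dimmer. Both signals thus sat near the middle of these controls, and a fold for EGF is not given. Among control arrays, TXNIP averaged 12.64 ± 0.13 in PC-9 and HCC827 (SD, n = 2 lines), at least 35.9-fold higher than in H322, with the H322 signal set to its background limit. H322 has 1 control array, so this difference between lines has no test. For ARRDC3 the same comparison gave 13.02 ± 1.38 in PC-9 and HCC827 (SD, n = 2 lines) and 11.43 in H322, and for ARRDC2 it gave 9.29 ± 0.45 and 8.84. Altogether 241 genes (1.36% of all named genes) were above background on all 4 arrays of the EGFR-mutant lines and on neither H322 array, and TXNIP was among the 17 of them with a difference of at least this size. With erlotinib 7 of the 241 rose and 8 fell past the threshold, where 0.565% of all genes rose and 0.916% fell. The 241 were picked as above background on all 4 arrays, as were 83 of the 100 genes that rose, so these shares are not alike.

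ARRDC2, a less studied alpha-arrestin, was high with erlotinib in HCC827 and changed little elsewhere. Its level was 11.29 in HCC827 with erlotinib and 9.60 in the HCC827 control, a 3.23-fold difference, which was the 91st highest change of the 9378 genes ranked there. In PC-9 it was 9.25 with erlotinib and 8.97 in the control, a 1.22-fold difference. In H322 it was 8.59 with EGF and 8.84 in the control. All 6 signals were above background, and the HCC827 erlotinib array stood 1.69 above the next array. The other gaps between neighbours in the order of levels were at most 0.35. Limma's residual spread gives an SD of 0.46 for a difference of 2 arrays of a line. That spread comes from the fit of PC-9 and HCC827 and does not measure differences between lines or in H322. The mean change over both lines was 0.99 ± 0.32 (limma's moderated SE, n = 2 lines), with a 95% interval of 0.23 to 1.74, and did not pass (limma adjusted p = 0.217). The difference between the lines, 1.69 against 0.28, was not tested, since neither line has a replicate. Where signals under the background level were set to it, ARRDC2 passed with the same mean change (limma adjusted p = 0.000828, in a range of 0.000828 to 0.999991 over 10 alternative fits). Its own signals were all above background and did not change. Its moderated SE went from 0.32 to 0.23, in a fit that called 1115 genes where the main fit called 262. That pass thus adds no support for a change of ARRDC2.

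ARRDC3, an adaptor known to bring the beta2-adrenergic receptor and the integrin ITGB4 to ubiquitin ligases, was lower with erlotinib in both lines, by unequal amounts. It was 11.10 in PC-9 with erlotinib and 12.04 in the control, a 1.93-fold difference. In HCC827 it was 13.74 with erlotinib and 13.997 in the control, a 1.20-fold difference. In H322 it was 11.29 with EGF and 11.43 in the control. Both HCC827 arrays lay above the other 4, by at least 1.69, and the PC-9 erlotinib array was the lowest of the 6. The 0.26 between the HCC827 arrays did not exceed the SD of 0.26 that the residual spread gives for a difference of 2 arrays of a line. The H322 arrays were 0.14 apart, and the H322 EGF and PC-9 erlotinib arrays 0.19. The residual spread does not apply to these last gaps. The mean change with erlotinib was -0.60 ± 0.19 (limma's moderated SE, n = 2 lines), with a 95% interval of -1.04 to -0.17, and did not pass (limma adjusted p = 0.191). Where signals under the background level were set to it, ARRDC3 passed (limma adjusted p = 0.00607, in a range of 0.00607 to 0.999991 over 10 alternative fits). As for ARRDC2, its own signals did not change, and its moderated SE went from 0.19 to 0.16. The pass adds no support for a change of ARRDC3.

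**Figure D2:**
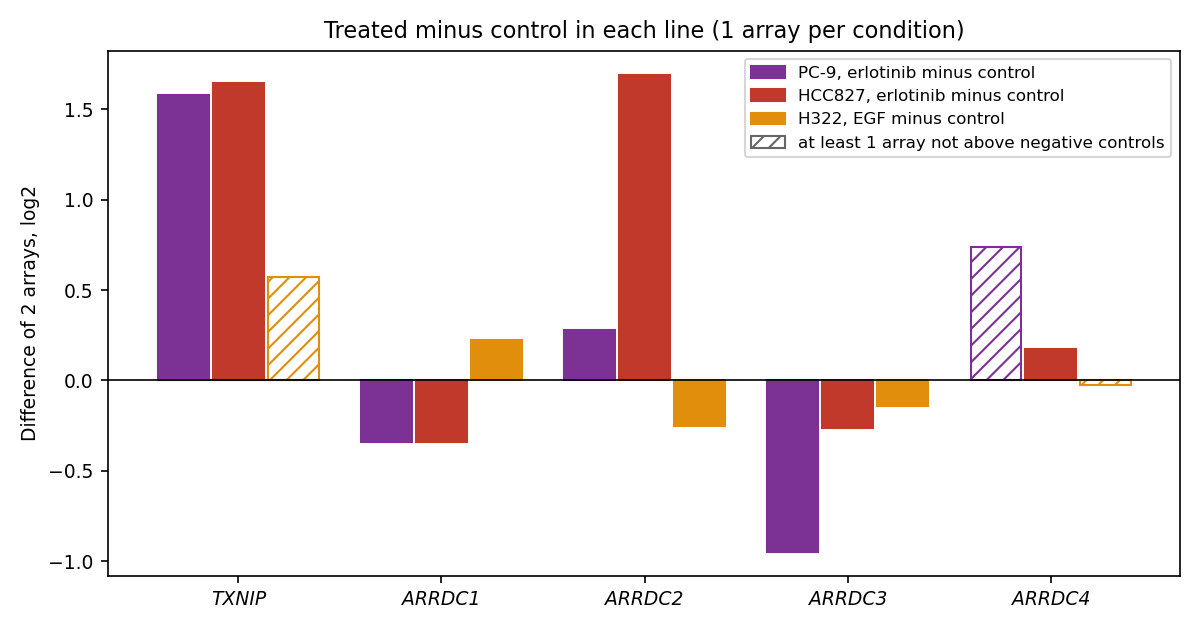
Treated minus control for each alpha-arrestin gene in each line, as a difference of 2 arrays on the log2 scale, with hatched bars where at least 1 array was not above the negative controls. The PC-9 and HCC827 bars are nearly equal for TXNIP (1.58 and 1.65) and ARRDC1 (-0.34 in each), and stand apart for ARRDC2 (0.28 and 1.69) and ARRDC3 (-0.95 and -0.26).

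ARRDC1, known for recruiting the ESCRT protein TSG101 to the plasma membrane and budding small vesicles there, varied less over the 6 arrays than ARRDC2 and ARRDC3. Its level was 11.84 in PC-9 with erlotinib and 12.18 in the control. In HCC827 it was 11.96 with erlotinib and 12.30 in the control. The changes were nearly the same, 1.26-fold and 1.27-fold lower with erlotinib. Of all 17687 genes 5240 were lower with erlotinib in both lines. The mean change was -0.34 ± 0.15 (limma's moderated SE, n = 2 lines), with a 95% interval of -0.69 to 0.01, and did not pass (limma adjusted p = 0.366). In H322 ARRDC1 was 12.80 with EGF and 12.57 in the control, the highest values of the 6 arrays, and the change with EGF was 0.22, or 1.17-fold. Changes of this size were common: 18.3% to 19.3% of the genes ranked in PC-9 and HCC827 had a lower change, and 17.7% of those in H322 a higher one. In the order of levels the gaps between neighbours were at most 0.28. The residual spread gives an SD of 0.21 for a difference of 2 arrays within PC-9 or HCC827. It does not measure differences between lines or in H322, so the order of the arrays is only described.

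ARRDC4, which like TXNIP is transcribed through MondoA and is known to act on glucose transporters, was close to background on all 6 arrays. It was 7.79 in PC-9 with erlotinib, and 7.05 in the control, where it was not above background, so it was at least 1.36-fold higher with erlotinib. In HCC827 it was 7.81 with erlotinib and 7.64 in the control, both above background, a 1.13-fold difference. In H322 it was 7.23 with EGF and 7.26 in the control, where it was not above background. The signals spanned less than 1 unit over all arrays, and the largest gap between neighbours in their order was 0.38. The residual spread gives an SD of 0.39 for a difference of 2 arrays within PC-9 or HCC827. The mean change with erlotinib was 0.45 ± 0.27 (limma's moderated SE, n = 2 lines), with a 95% interval of -0.18 to 1.09, and did not pass (limma adjusted p = 0.523). This interval lies below that of TXNIP, 1.31 to 1.91. For a signal this near background a change cannot be sized, so the 2 intervals are not read as a difference or a likeness of the genes.

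**Figure D3:**
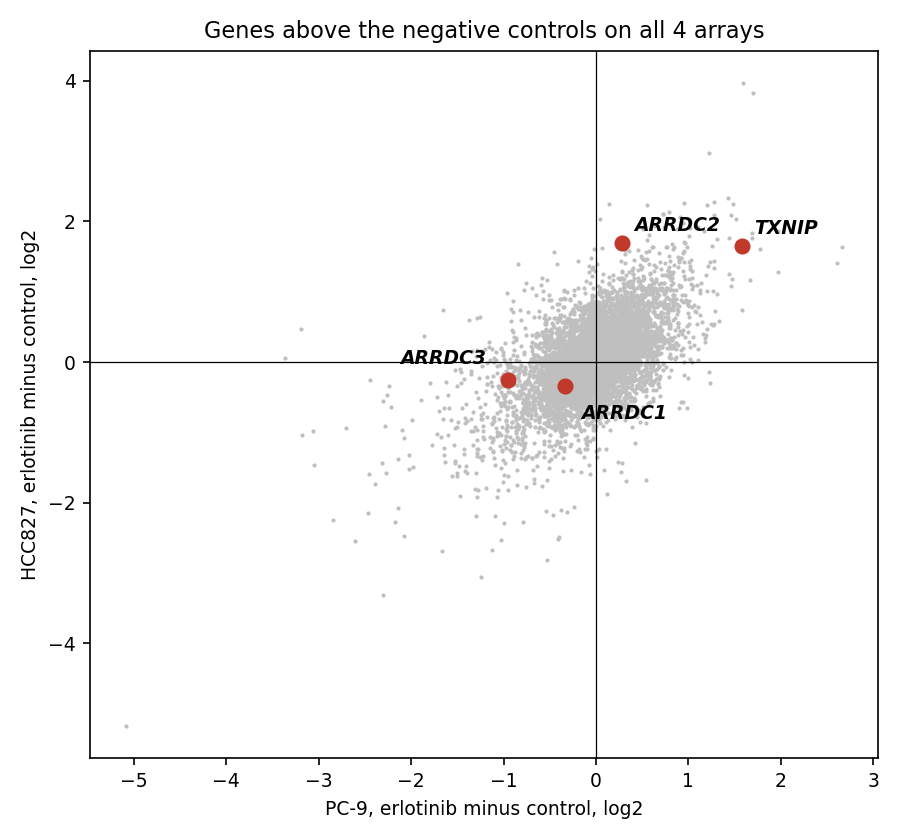
Erlotinib minus control on the log2 scale in PC-9 (horizontal) and HCC827 (vertical) for the 7796 genes above the negative controls on all 4 arrays (grey), with the 4 alpha-arrestin genes among them in red. TXNIP lies near the diagonal at 1.58 and 1.65, ARRDC2 is displaced toward HCC827, and ARRDC3 and ARRDC1 lie below 0 on both axes.

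For the 3 members above background on all 6 arrays, the genes with the most similar set of changes were found by Euclidean distance over the PC-9, HCC827 and H322 log2 differences, among 7404 other genes above background throughout. For ARRDC1 these were TPD52L2, CYB5B, HSPA9, IL18 and UPRT, at distances of 0.015 to 0.054. HSPA9 encodes the mitochondrial HSP70 chaperone and IL18 an inflammatory cytokine. For ARRDC2 they were AKR1C3, an aldo-keto reductase, RXRB, a retinoid X receptor, BLTP3A, UBXN6 and CCDC28A, at 0.13 to 0.29, and their own log2 differences in HCC827 were 1.45 to 1.60. For ARRDC3 they were NUDT4P2, THOC1, NT5E, PSAT1 and TNIP2, at 0.086 to 0.14. NT5E encodes the ectonucleotidase CD73 and PSAT1 an enzyme of serine synthesis, and the NUDT4P2 signal is uncertain because that pseudogene is close in sequence to its parent gene. TXNIP was set against 7795 genes over PC-9 and HCC827 alone, a choice made after its H322 signals were seen. The nearest were BRD8, a bromodomain protein, RND1, CNNM3, GRAMD1C and TRAFD1, at distances of 0.16 to 0.28, with PC-9 differences of 1.31 to 1.78 and HCC827 differences of 1.61 to 1.83. They were chosen by these differences, so no test of them is given.

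The thioredoxin system, which TXNIP binds, showed no gene past the threshold. Of 13 measured members 0 rose and 0 fell with erlotinib, where 1.48% of all genes passed. At that share a list this short would seldom hold a called gene. This list and those below were chosen with earlier results of these data known. Their counts of called genes are not tested against that share. The median of the thioredoxin list was -0.09, against 0.00 over all genes tested. Thioredoxin itself, TXN, was 16.41 in PC-9 with erlotinib and 16.51 in the control, and 15.14 in HCC827 with erlotinib and 15.25 in the control. Its mean change was -0.11 ± 0.10 (limma adjusted p = 0.699). GLRX2, GLRX, SRXN1 and PRDX4, which encode glutaredoxins, a sulfiredoxin and a peroxiredoxin, had the largest mean changes, at -0.49, -0.35, -0.20 and -0.19.

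Of the 12 genes listed as MondoA and ChREBP factors and targets none passed, where 1.48% of all genes did. Their median was -0.16. The MondoA gene MLXIP was 10.08 in PC-9 with erlotinib and 10.02 in the control, and 8.77 in HCC827 with erlotinib and 8.55 in the control. Its mean change was 0.14 ± 0.21 (limma adjusted p = 0.849). In H322 MLXIP was 7.71 with EGF and 7.35 in the control, where it was not above background. The partner gene MLX had a mean change of -0.59 ± 0.19 (limma adjusted p = 0.213) with erlotinib, and was 1.37-fold higher with EGF in H322. BHLHE40, a repressor of the clock, had -0.86, and ACACB and PKLR had 0.55 and -0.49 without lying above background on any of the 4 arrays. The ChREBP gene MLXIPL was not above background on any of the 6 arrays.

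Enzymes that make or use glucose 6-phosphate, the metabolite to which MondoA responds, had a median of -0.36. HK2, a hexokinase, fell past the threshold, as did 0.916% of all genes, and the other 6 of 7 measured members did not pass. The fitted mean of HK2 was -2.19 ± 0.28 on the log2 scale (limma adjusted p = 0.0184). With signals under background set to it, the mean of HK2 was -1.49. With erlotinib its signal in PC-9 was not above background, a difference of at least 1.38-fold, and in HCC827 it was 5.73-fold lower. HK1, HKDC1 and PGM1 had mean changes of -0.74, -0.39 and -0.36. With EGF in H322 all 7 members had a positive difference, with a median of 0.27, as did 9034 of all 17687 genes and 7 of the 8 other arrestin-fold genes listed below. For HK3 and HKDC1 neither array was above background.

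Among 9 NEDD4 family ubiquitin ligases, the partners of the PPXY motifs, SMURF2 fell and the other 8 did not pass. Of all genes 0.916% fell past the threshold. SMURF2 was 12.22 in PC-9 with erlotinib and 13.51 in the control, and 11.65 in HCC827 with erlotinib and 12.99 in the control. Its mean log2 change was -1.32 ± 0.14, or 2.49-fold lower (limma's moderated SE, n = 2 lines, limma adjusted p = 0.0126). Like TXNIP, the genes SMURF2, HK2 and IL1B did not pass when the line block was dropped (limma adjusted p = 0.999991 for each) or when the spread was not let vary with level (limma adjusted p = 0.131 for SMURF2, 0.117 for HK2 and 0.0971 for IL1B). Those fits called 0 and 1 of all genes, so failing them does not mark out these genes. In H322 SMURF2 was 11.32 with EGF and 10.78 in the control, 1.45-fold higher with EGF. HECW2, WWP1 and HECW1 had mean changes of 0.68, 0.31 and -0.27, with HECW2 above background on 1 array and HECW1 on none, and the list's median was 0.19.

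Of 6 measured membrane proteins known as cargo of alpha-arrestins, the glucose transporter genes SLC2A1 and SLC2A3 fell (limma adjusted p = 0.0404 and 0.0406). Of all genes 0.916% fell past the threshold. The list was chosen with earlier results of these data known, so its count is not set against that share. The list's median was -0.48. With erlotinib SLC2A1 was lower in both lines, by a factor of 2.04 in PC-9 and 5.78 in HCC827. SLC2A3 was 4.86-fold lower in PC-9, and neither HCC827 array was above background. SLC2A3 and SLC2A14 are near-identical in sequence, which leaves the SLC2A3 signal uncertain. Neither transporter gene passed with an offset of 16 (limma adjusted p = 0.0548 and 0.0786) or in 3 other alternative fits. F2R and SLC2A4 had -0.63 and -0.33 and were not above background on any array.

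Of 12 measured ESCRT genes none passed, where 1.48% of all genes did, and the median was -0.02. TSG101, the partner of ARRDC1, had 0.41 ± 0.15 (limma adjusted p = 0.275), with a 1.38-fold higher level in PC-9 and a 1.29-fold higher level in HCC827. VPS37B, STAM and VPS37C had mean changes of -0.42, -0.32 and 0.22. Of 8 other genes with an arrestin fold none passed, against the same 1.48%, and the median was -0.02. ARRB1, which encodes beta-arrestin 1, had 0.92 ± 0.27 (limma adjusted p = 0.168), and like ARRDC2 was further apart in HCC827 (12.05 with erlotinib and 10.52 in the control) than in PC-9 (12.59 with erlotinib and 12.28 in the control). VPS26B had -0.20, and ARRDC5 and the visual arrestin gene SAG had -0.18 and -0.11 and were not above background on any array. In the list of the NLRP3 inflammasome, to which TXNIP is known to bind, IL1B fell (limma adjusted p = 0.00734), as did 0.916% of all genes. The other 5 of 6 did not pass, and the list's median was -0.16. The IL1B signal of PC-9 with erlotinib was not above background, which gives a difference of at least 1.40-fold, and in HCC827 the level was 13.26 with erlotinib and 15.52 in the control. Its fitted mean was -2.45 ± 0.20 on the log2 scale, and -1.37 with signals under background set to it. IL18, PYCARD and NLRP3 had -0.32, -0.19 and 0.14, and NLRP3 was not above background on any array.

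**Figure D4:**
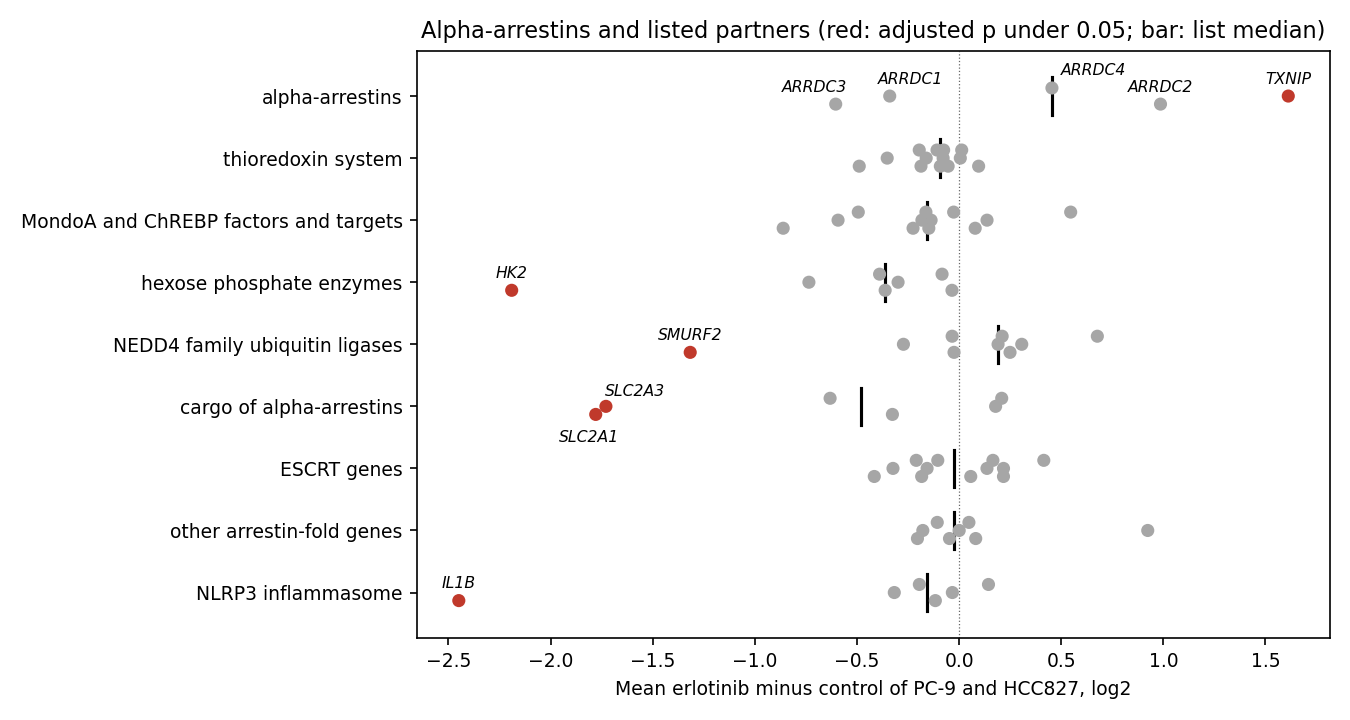
Mean erlotinib minus control of PC-9 and HCC827 on the log2 scale (horizontal) for the 5 alpha-arrestin genes and 8 lists of their partners and relatives, with 1 point per gene, red where limma's adjusted p is under 0.05, and a black bar at the median of each list. TXNIP is the red point to the right, at 1.61, and HK2, SMURF2, SLC2A1, SLC2A3 and IL1B are the red points to the left.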

How the data were processed

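Total RNA of cultured cells was hybridised to 6 arrays of the Clarion S type, as the labels' protocols state. The authors deposited probe set intensities on a linear scale, and the submitters' processing notes name Affymetrix Expression Console. Version, background correction, summarisation method and build: not given in the sources used. The medians of the arrays, 148 to 157, were near equal, so a change shared by most genes could be hidden. From these deposited intensities log2(intensity + 1) was computed here, which understates changes of dim genes.

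Of 24351 probe sets 17709 had 1 gene symbol in the platform annotation, 0 more than 1, and 6642 none. Each of the 17709 matched a RefSeq table (GRCh38.p14), which changed 0 symbols. The brightest probe set was kept for 20 genes with several. Limma 3.58.1 in R 4.3.3 fitted erlotinib with cell line as a block and a trend of the spread, two-sided, with Benjamini-Hochberg adjustment over all genes. The pairing comes from the cell line: across genes the erlotinib and control arrays had a correlation of 0.991 in PC-9 and 0.988 in HCC827. Single lines have no test. A gene above background on 1 array of a pair has a fold given as "at least". The fit was tested on simulated data with normal noise. It recovered the mean of the largest rises put in, which adding a constant to the values all but ensures. In every run the share of false calls exceeded the threshold's 0.05. How often smaller changes were called is not given here, so the test does not show whether changes like those of ARRDC2 and ARRDC3 would pass. The number of arrays limits the precision.

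Members and partner lists were chosen with earlier results of these data known. Text names all members, list genes past the threshold, up to 4 per list by mean change and, by distance, the 5 nearest genes of each member above background on all arrays. TXN, MLXIP, MLXIPL, HK3, ARRDC1-AS1 and the genes nearest to TXNIP were named after their values were seen. Of the listed partner genes 6 were not found by symbol and are not analysed here. Alternatives changed the offset, filters, scaling, floor, block, trend, probe set and arrays fitted.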

Additional observations from a re-analysis of the deposited data

Results flagged for a closer look

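For 4 partner genes named above, the erlotinib change had opposite signs in PC-9 and HCC827, with at least 1 array of each pair above background. HKDC1, a hexokinase domain gene, was -1.38 in PC-9 and 0.60 in HCC827 on the log2 scale. The ESCRT gene VPS37B was -1.03 in PC-9 and 0.20 in HCC827. The ubiquitin ligase gene WWP1 was -0.16 in PC-9 and 0.78 in HCC827. VPS37C, another ESCRT gene, was -0.048 in PC-9 and 0.48 in HCC827. Each value is a difference of 2 arrays, and the difference between the lines was not tested.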

How the results depend on the processing

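For the 5 alpha-arrestin genes every mean change with erlotinib kept its sign in the 10 alternative fits run, and 46 of the 50 values stayed on their side of the threshold. Dropping the block or the trend, filtering genes, adding the H322 arrays or averaging probe sets could not move these means. Only the offset, the scalings and, for ARRDC4, the background floor could change them, so the kept sign says little. TXNIP kept 1.61 but did not pass without the line block (no replicate block) or without a trend of the spread, and ARRDC2 and ARRDC3, at 0.99 and -0.60, passed with signals under background set to it. These means did not move, so the passes and failures came from limma's estimate of the spread and the adjustment over all genes. With no replicate block limma called 0 genes, where 186 had an unadjusted p under 0.05. The 262 genes past the threshold became 1 without the trend, 166 with an offset of 16, 96 when genes dim on every array were dropped, 535 with median-centred arrays, 806 with quantile normalization and 1115 with the background floor, where the median of all genes was -0.17. Leaving out a line gave 0.28 to 1.69 for ARRDC2, -0.95 to -0.26 for ARRDC3, 0.17 to 0.74 for ARRDC4, -0.34 in each for ARRDC1 and 1.58 to 1.65 for TXNIP. Under the other settings 73 single-line values moved by less than the spread of a difference of 2 arrays and 2 by more. For H322 too this spread was taken from the fit of PC-9 and HCC827. The 73 include values that could not move: those with averaged probe sets, and those with the floor where both arrays were above background. The TXNIP difference with EGF in H322, 0.57, became 0.31 with the offset of 16 and -0.34 with the background floor, and neither array was above background.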

Other observations

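ARRDC1-AS1, a long non-coding RNA gene that overlaps ARRDC1 by 29 bases on the opposite strand in the RefSeq table, had its own probe set and was above background on all 6 arrays. It was 7.97 in PC-9 with erlotinib and 7.67 in the control, and 8.13 in HCC827 with erlotinib and 8.05 in the control. In H322 it was 8.51 with EGF and 8.25 in the control. Its differences were thus 0.29, 0.09 and 0.26, where those of ARRDC1 were -0.34, -0.34 and 0.22. It was chosen after its values were seen.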
